A study of Homo sapiens with 183 samples.

Results

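The 9 brush border genes were followed through all RNA-seq libraries of a study of human cell lines. They are MYO1A, EPS8L3, VIL1, CDHR2, CDHR5, USH1C, MYO7B, ESPN and PLS1, chosen by name as structural components of the microvillus, and they make up 9 of the 19875 gene names listed in each of the 8 deposited TPM tables. The study asked how pancreatic ductal adenocarcinoma cells respond to loss of the transcription factor KLF5 and of the paired AAA+ ATPases RUVBL1 and RUVBL2. The question here was how strongly each line expressed the brush border genes at baseline, and how each gene moved when a gene was knocked out or when RUVBL1/2 was inhibited.

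The knockout libraries came from pools of cells, not clones, that stably expressed Cas9 and had received a lentiviral sgRNA, and RNA was taken on day 5. Controls carried the same system with sgRosa, which targets the ROSA26 locus. The paper states that KLF5, RUVBL1, RUVBL2 and ROSA26 were each targeted with 2 different sgRNAs in its knockout RNA-seq. The labels do not say which library had which guide, so differences between guides lie within the spread of a group. AsPC-1 was used in 4 experiments. Experiment 1 held 2 sgRosa and 6 sgKLF5 libraries. Experiment 2 held 4 libraries each of sgRosa, sgRUVBL1 and sgSERPINB5. Experiment 3 held 4 libraries each of sgRosa, sgKLF5, sgRUVBL1 and sgRUVBL2 with 2 each of sgCDK1 and sgRpa3, and a separate CHD4 experiment held 4 sgRosa and 4 sgCHD4 libraries. SUIT-2 had 4 sgRosa and 4 sgKLF5 libraries. T3M-4 experiment 1 had 2 sgRosa, 4 sgKLF5 and 2 sgRpa3 libraries, and T3M-4 experiment 2 had 4 sgRosa, 4 sgKLF5, 3 sgRUVBL1, 4 sgRUVBL2, 2 sgCDK1 and 2 sgRpa3. BxPC-3 followed the same plan, with 4 sgRUVBL1 and 3 sgRUVBL2 libraries in experiment 2. CFPAC-1 had 4 sgRosa, 3 sgKLF5, 4 sgRUVBL1, 2 sgRUVBL2, 2 sgCDK1 and 2 sgRpa3 libraries. CDK1 and RPA3 are needed by dividing cells in general.

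The inhibitor libraries were collected after 24 h in CB-6644, an allosteric inhibitor of the RUVBL1/2 ATPase, or in its solvent DMSO. AsPC-1 and T3M-4 cells had been transduced and selected with an empty lentiviral vector (Lv-Empty) or with a variant that resists the inhibitor, RUVBL1 A62T or RUVBL2 dF109. Each of these constructs had 3 CB-6644 libraries and 1 DMSO library, so the 3 DMSO libraries of a line were pooled across constructs as its control. The colorectal carcinoma line T84, the melanoma line A375, the small cell lung cancer line H1048 and the rhabdomyosarcoma line RH30 each had 4 DMSO and 4 CB-6644 libraries. The labels do not say whether replicates came from separate cultures, so every p-value measures only the spread between these libraries.

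The brush border is the carpet of microvilli on the apical face of intestinal absorptive cells. Each microvillus has a core of parallel actin filaments cross-linked by villin (VIL1), espin (ESPN) and fimbrin (PLS1), and the motor myosin-1a (MYO1A) ties that core to the membrane. Neighbouring microvilli are held together at their tips by the protocadherins CDHR2 and CDHR5, whose tails are bound by the scaffold harmonin (USH1C) and the tip motor myosin-7b (MYO7B). EPS8L3 belongs to the EPS8 family of actin regulators. In the adult these proteins are typical of small intestine and kidney tubule.

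On GRCh38 (GENCODE annotation) ESPN lies at chr1:6424776-6461367 on the + strand and EPS8L3 at chr1:109750080-109764027 on the - strand. MYO7B lies at chr2:127535683-127637729 (+), VIL1 at chr2:218419121-218453295 (+), PLS1 at chr3:142596393-142713664 (+) and CDHR2 at chr5:176542511-176595974 (+). CDHR5 lies at chr11:616577-626078 (-), USH1C at chr11:17493895-17544416 (-) and MYO1A at chr12:57028517-57051198 (-). ESPN overlaps TNFRSF25 on the opposite strand and has a near copy, ESPNP, so its reads could be split between the copies and its values are uncertain. EPS8L3 overlaps GSTM5, VIL1 overlaps USP37, PLS1 overlaps PLS1-AS1 and CDHR2 overlaps GPRIN1, each on the opposite strand. MYO1A overlaps TAC3 on its own strand.

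RefSeq promoters (GRCh38.p14) were held for 6 of the 9 genes, with 12 annotated starts between them, and the 250 bases before each start were searched on both strands for letters bound by transcription factor families of the study or of enterocytes, of which 3 are given here. Promoters of 3 genes are shown here 5′ to 3′, with every match in capitals and all other bases in lower case. MYO1A and EPS8L3 are shown because they fell after sgKLF5 in AsPC-1, and USH1C because it holds several KLF matches. The MYO1A stretch is chr12:57050130-57050379 (-), the EPS8L3 stretch is chr1:109764028-109764173 (-) and begins 250 bases before the start, with the bases nearer the start not shown, and the USH1C stretch is chr11:17544417-17544666 (-).
MYO1A: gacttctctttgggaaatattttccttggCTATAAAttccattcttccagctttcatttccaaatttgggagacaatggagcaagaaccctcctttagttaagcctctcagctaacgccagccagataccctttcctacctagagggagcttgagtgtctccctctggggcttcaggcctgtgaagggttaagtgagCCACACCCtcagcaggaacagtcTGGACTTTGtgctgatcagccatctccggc
EPS8L3: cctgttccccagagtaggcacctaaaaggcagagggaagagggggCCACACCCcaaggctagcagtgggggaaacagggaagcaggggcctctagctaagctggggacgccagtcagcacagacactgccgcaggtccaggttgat
USH1C: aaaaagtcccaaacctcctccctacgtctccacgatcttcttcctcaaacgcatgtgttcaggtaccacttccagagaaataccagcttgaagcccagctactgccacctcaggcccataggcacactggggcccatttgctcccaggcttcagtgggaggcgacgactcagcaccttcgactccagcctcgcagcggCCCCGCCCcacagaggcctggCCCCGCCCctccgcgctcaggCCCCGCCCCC

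The MYO1A window shown belongs to the second of its 2 annotated starts, lies inside the annotated gene and was chosen because it holds the most matches, and the window of the other start holds 1 CDX2 match and no KLF or HNF4 match. In it the capitals mark, from left to right, a CDX2 match (TTTATNG, here read on the other strand) 221 bases before the start, a KLF match (CCNCNCCC) 53 bases before it, and an HNF4 match (CAAAGTCCA, also on the other strand) 30 bases before it. In EPS8L3 they mark a KLF match 205 bases before the start, and another KLF match, 77 bases before it, lies in the bases not shown. In USH1C they mark 4 KLF matches at 52, 31, 10 and 8 bases before the start, of which the last pair overlap. KLF letters stood in 9 of the 12 member windows and in at least 1 window of all 6 genes, and 53.4% of the 35116 windows of all promoters held them. HNF4 letters stood in 1 member window and in 0.325% of all windows, and CDX2 letters stood in 3 member windows, of MYO1A and PLS1, and in 8.93% of all windows. Such matches describe the sequence and do not show binding.

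The values are TPM, which are scaled for transcript length and have the same sum in each library, so levels can be set side by side between genes but the sequencing depth is unknown. Between 11292 and 14024 genes reached 1 TPM in a library, and no pair of libraries held identical values. Of 5 markers of the line's tissue, 5 skeletal muscle genes reached 1 TPM in RH30, 4 tuft cell genes in H1048, where TRPM5 was under it, and 3 melanocyte genes in A375, where PMEL and TYR were under it. All 5 colorectal markers reached 1 TPM in T84, as did 4 of 5 in AsPC-1, where the same list summed to 1055 to 2197 TPM in control libraries and CDX1 was under 1 TPM. Of 5 stromal and immune markers only CD68 reached 1 TPM in AsPC-1 sgRosa groups, with PTPRC, COL1A1, COL3A1 and PECAM1 under it. RUVBL1 and RUVBL2 transcripts were lower in all 5 and all 4 comparisons of their own knockouts. KLF5 mRNA was lower in the libraries labelled sgKLF5 only in CFPAC-1, at 144 against 192 TPM, and was higher in AsPC-1 experiment 1 and T3M-4 experiment 2. CHD4 mRNA was likewise 82.7 TPM in the libraries labelled sgCHD4 against 66.8 TPM in sgRosa. An edited coding exon need not lower its mRNA, so the transcript checks these labels only in part, and directions below are those of the libraries so labelled.

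At baseline the set as a whole was a feature of AsPC-1 and T84, though ESPN and PLS1 had their highest means in other lines. In every AsPC-1 control group and in T84 all 9 genes reached 1 TPM and 8 of 9 reached 10 TPM. In each other line only 2 to 4 of the 9 reached 1 TPM. VIL1, the villin gene, was the highest of the 9 in AsPC-1 experiment 3 sgRosa, at 339 ± 14.7 TPM (SD, n = 4), and stood at 257 ± 11.8 TPM (SD, n = 4) in T84. Outside these lines the highest VIL1 was in CFPAC-1, at 2.05 ± 0.862 TPM (SD, n = 4), and all other control groups were under 0.5 TPM. VIL1 differed between AsPC-1 experiments with no overlap of libraries, from 56.9 to 61.9 TPM in experiment 2 to 320.4 to 356 TPM in experiment 3, so knockouts were read only against sgRosa of their own experiment.

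**Figure D1:**
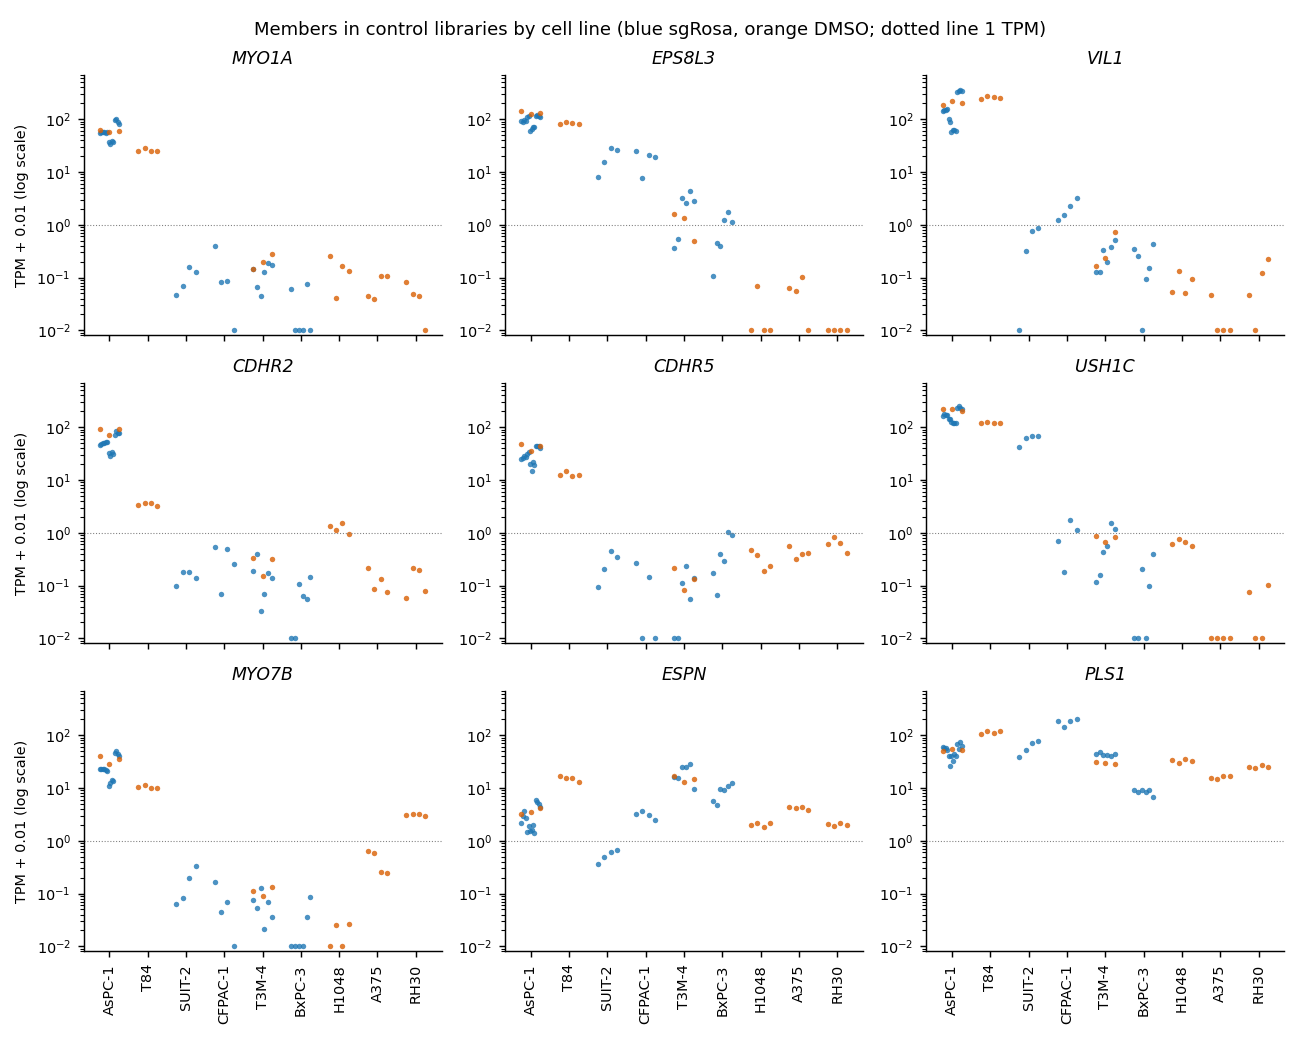
TPM of each of the 9 genes in every sgRosa (blue) and DMSO (orange) library, by cell line, on a log axis after adding 0.01, with a dotted line at 1 TPM. MYO1A, CDHR5 and VIL1 lay above 10 TPM in AsPC-1 and T84, whereas PLS1 lay above 1 TPM in all 9 lines.

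MYO1A, the membrane-linking motor, was close to absent outside these lines. Its sgRosa libraries in AsPC-1 experiment 3 held 94.5, 98.9, 89.2 and 82.4 TPM, against 25.6 ± 1.78 TPM (SD, n = 4) in T84 and at most 0.195 TPM as a mean in any other control group. The 4 AsPC-1 sgRosa groups and the DMSO libraries of AsPC-1 ran from 36.6 to 91.3 TPM, and of the neighbours in that order only experiment 1 and the CHD4 experiment overlapped. The intermicrovillar adhesion genes followed a like order. CDHR5 ranged from 19.1 to 43.1 TPM over AsPC-1 control means, was 12.9 ± 1.4 TPM (SD, n = 4) in T84 and did not pass 0.653 TPM elsewhere. CDHR2 ranged from 31.3 to 84.3 TPM in AsPC-1 but was only 3.44 ± 0.244 TPM (SD, n = 4) in T84, with H1048 next at 1.22 ± 0.252 TPM (SD, n = 4). MYO7B ranged from 12.6 to 45.5 TPM in AsPC-1 and was 10.4 ± 0.809 TPM (SD, n = 4) in T84, and the muscle-lineage line RH30 held 3.11 ± 0.109 TPM (SD, n = 4). USH1C was 121 ± 2.77 TPM (SD, n = 4) in AsPC-1 experiment 2 and 120.4 ± 2.59 TPM (SD, n = 4) in T84, which overlapped, and SUIT-2 held 60.4 ± 13.1 TPM (SD, n = 4).

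Besides USH1C in SUIT-2, the members with clear levels in other pancreatic lines were EPS8L3, ESPN and PLS1. EPS8L3 was 67.4 to 131 TPM over AsPC-1 control means and 84.2 ± 3.35 TPM (SD, n = 4) in T84. SUIT-2 sgRosa libraries held 8.13, 15.2, 28.6 and 26 TPM of EPS8L3 and CFPAC-1 sgRosa libraries 25, 7.78, 21.1 and 18.9 TPM, so these lines overlapped. In each of them 1 sgRosa library stood low, replicate 1 of SUIT-2 and replicate 2 of CFPAC-1. ESPN was highest in T3M-4 experiment 2 sgRosa, at 22 ± 8.29 TPM (SD, n = 4), and had means of 1.64 to 5.11 TPM in AsPC-1 sgRosa groups. PLS1 was highest in CFPAC-1, at 179 ± 26.6 TPM (SD, n = 4), followed by 113 ± 8.58 TPM (SD, n = 4) in T84, and lowest in BxPC-3, at 8.28 ± 1.05 TPM (SD, n = 4) in experiment 2. PLS1 is the member whose product is also common in other epithelia.

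The pattern over the 16 control groups was summarised as the mean of the 9 genes, each centred, on the log2(TPM + 1) scale. MYO1A and VIL1 followed it with Pearson correlations of 0.987 and 0.988, while PLS1 had 0.478 and ESPN -0.197. Among 13922 genes compared, the 5 with the closest pattern were CLRN3 (0.990), CDH17 (0.989), SPON1 (0.988), LINC00483 (0.987) and TM4SF5 (0.986). CDH17 encodes liver-intestine cadherin. These correlations are descriptions over 16 means from 9 lines, and the AsPC-1 groups among them share a line.

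Knockout of KLF5 was tested in 5 pancreatic lines. The differences are given on the log2(TPM + 1) scale, which understates the change of low genes, from limma-trend fitted to every gene whose mean reached 1 TPM over the libraries of the fit, and a gene is said to have risen or fallen where the p adjusted over all those genes was under 0.05. The median difference of all genes was itself beyond 0.1 in 21 of the 39 comparisons with a control, from -0.22 to 0.33, so each call was also tried after libraries were rescaled by the median of ratios, called rescaling below. In AsPC-1 the libraries labelled sgKLF5 had lower MYO1A, EPS8L3 and USH1C in both experiments. MYO1A and EPS8L3 are on the study's own list of genes lower after KLF5 loss in AsPC-1, which was drawn from these libraries, so their direction is not independent evidence.

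MYO1A gave the largest difference of the 9 in both experiments. In experiment 1 the sgRosa libraries held 55.8 and 56.5 TPM of MYO1A and the 6 libraries labelled sgKLF5 ran from a lowest of 8.15 through a median of 9.66 to a highest of 12.5 TPM. All 6 lay far below both controls, and the difference was -2.37 on the log2 scale (SE 0.15, limma adjusted p = 2.44e-06). In experiment 3 the sgRosa libraries held 94.5, 98.9, 89.2 and 82.4 TPM and those labelled sgKLF5 7.22, 12.2, 19.1 and 19.1 TPM. Again the groups did not overlap, and MYO1A fell by 2.67 on the log2 scale (SE 0.21, limma adjusted p = 1.24e-08). In bulk RNA fewer cells of a type and less RNA per cell cannot be told apart, which holds for every difference given here. The experiments differed in this fall by 0.29 (SE 0.30, limma adjusted p = 0.749), short of the threshold.

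EPS8L3 was 116, 120.2, 113 and 112 TPM in sgRosa and 45.5, 58.4, 63.6 and 51.2 TPM in the libraries labelled sgKLF5 of experiment 3. No library overlapped, and the difference was -1.07 (SE 0.11, limma adjusted p = 4.37e-07). In experiment 1 it fell from 113 ± 2.61 TPM (SD, n = 2) to 69.5 ± 4.82 TPM (SD, n = 6), a difference of -0.69 (SE 0.079, limma adjusted p = 0.000123). USH1C, the harmonin scaffold, showed smaller differences in both. It moved from 144 and 141 TPM to 105 to 113 TPM in experiment 1 (-0.39, SE 0.058, limma adjusted p = 0.000649). In experiment 3 the sgRosa libraries held 227, 246, 228 and 222 TPM and those labelled sgKLF5 150.4, 167, 174 and 174 TPM (-0.47, SE 0.053, limma adjusted p = 1.27e-06).

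VIL1 went the other way in experiment 1 alone. Its sgRosa libraries held 99 and 87.2 TPM and the 6 libraries labelled sgKLF5 286 to 323 TPM, so all 6 stood above both controls by 1.68 on the log2 scale (SE 0.070, limma adjusted p = 1.48e-07). In experiment 3 VIL1 was already 320.4, 338, 356 and 344 TPM in sgRosa, and the libraries labelled sgKLF5 held 347, 386, 402 and 359 TPM, a difference of 0.14 that missed the threshold (limma adjusted p = 0.27). Both groups stood lower in experiment 1 than in experiment 3, sgRosa by more. The difference between the experiments was itself past the threshold, at 1.54 (SE 0.12, limma adjusted p = 2.63e-08).

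A further 3 genes fell in experiment 3 but did not pass in experiment 1. MYO7B, the tip motor, was 28.7 ± 9.11 TPM (SD, n = 4) against 45.5 ± 4.02 TPM (SD, n = 4) in sgRosa (-0.70, SE 0.19, limma adjusted p = 0.00909), and its difference in experiment 1 was -0.39 (limma adjusted p = 0.0736). ESPN was 1.83, 3.04, 4.29 and 2.44 TPM against 5.82, 5.52, 4.85 and 4.27 TPM, with 3 of 4 libraries below every control (-0.68, SE 0.17, limma adjusted p = 0.00553). CDHR5 was 17.5, 36.6, 40.2 and 22.3 TPM against 43.4, 44.8, 43.8 and 40.6 TPM (-0.63, SE 0.20, limma adjusted p = 0.0234), and this call was lost without sgKLF5 replicate 1, sgKLF5 replicate 4 or sgRosa replicate 2, with adjusted p up to 0.0989, and with only the groups compared in the fit (0.0571). Its partner CDHR2 gave 0.044 and -0.30 in experiments 1 and 3, and PLS1 gave 0.59 and 0.054, none past the threshold. PLS1 passed in experiment 1 without sgRosa replicate 1 (0.88, limma adjusted p = 0.036), sgKLF5 replicate 4 (0.0132) or sgKLF5 replicate 6 (0.0436), and CDHR2 in experiment 3 without sgKLF5 replicate 2 (0.0366) or 3 (0.0264). After rescaling PLS1 and MYO7B passed in experiment 1 (limma adjusted p = 0.0433 and 0.00659) and CDHR2 in experiment 3 (0.0152). In experiment 3 sgKLF5 replicate 1 was the lowest of its group for 8 of the 9 genes.

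In counts, 3 of 9 genes fell in experiment 1, where 8.81% of all genes tested did, and 1 of 9 rose, where 17.1% of all genes did. In experiment 3, 6 of 9 fell against 12.3% of all genes and 0 rose against 15.4%. The median difference of the 9 was -0.0037 in experiment 1 and -0.63 in experiment 3, and the medians of all genes were 0.082 and 0.020.

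**Figure D2:**
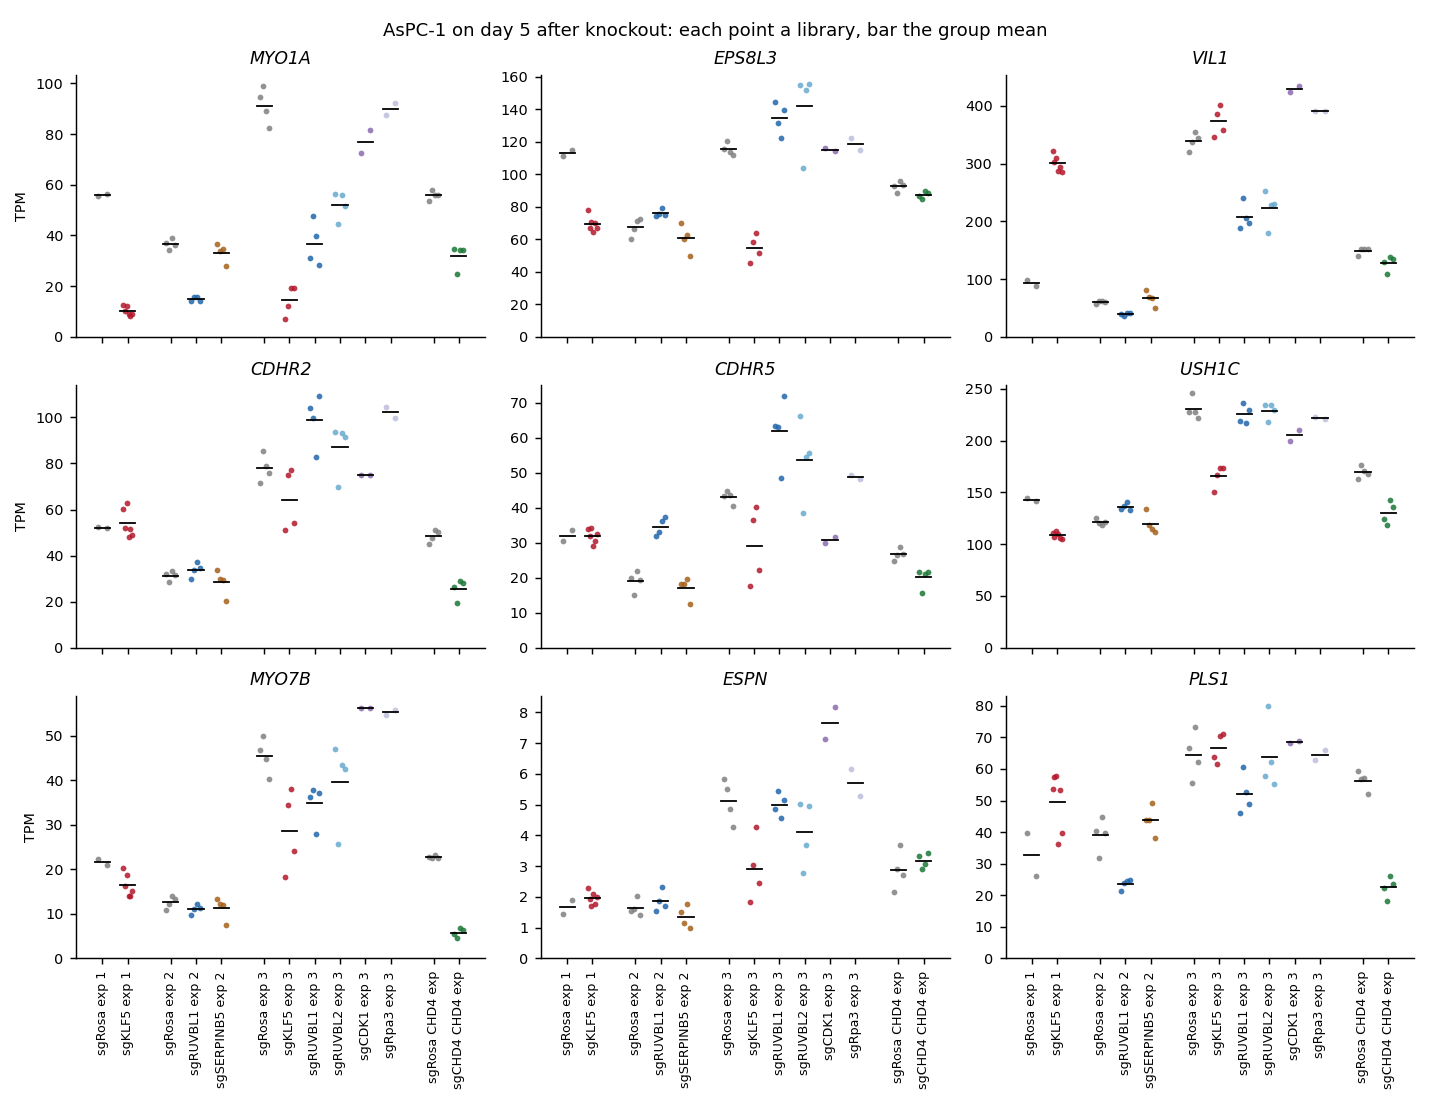
TPM of the 9 genes in each AsPC-1 knockout library on day 5, by experiment and guide, with points for libraries and a bar at the group mean. MYO1A stood at 7.22 to 19.1 TPM in every library labelled sgKLF5 and at 34.5 to 98.9 TPM in every sgRosa library, whereas VIL1 in sgRosa ran from 56.9 to 356 TPM between experiments.

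In the other lines fewer members could be tested and few moved together. EPS8L3 in CFPAC-1 was 7.21, 7.46 and 6.09 TPM in the libraries labelled sgKLF5 against 25, 7.78, 21.1 and 18.9 TPM in sgRosa. All 3 were below all 4 controls, the lowest control by a small margin, and the difference was -1.17 (SE 0.25, limma adjusted p = 0.00735), a call lost with only the groups compared in the fit (0.0509). In SUIT-2 the 4 libraries held 9.0, 8.36, 10.01 and 11.2 TPM of EPS8L3 against 8.13, 15.2, 28.6 and 26 TPM, a difference of -0.81 that did not pass (limma adjusted p = 0.294). Without sgRosa replicate 1, the library low for all 3 detected genes of SUIT-2, its adjusted p was 0.0181. After rescaling EPS8L3 (-1.03) and USH1C (-0.45) passed in SUIT-2 (limma adjusted p = 0.0328 and 0.0479).

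PLS1, which every line expressed, fell in T3M-4 experiment 2 and in CFPAC-1. In T3M-4 experiment 2 it was 31.8 ± 1.11 TPM (SD, n = 4) against 42.1 ± 1.36 TPM (SD, n = 4) (-0.39, SE 0.086, limma adjusted p = 0.00167). In T3M-4 experiment 1 the libraries labelled sgKLF5 held 16.2, 3.85, 24.5 and 25.2 TPM against 44.4 and 48.3 TPM, and the difference of -1.62 did not pass (limma adjusted p = 0.17), though it did without sgKLF5 replicate 2 (0.00252) and after rescaling (0.0487). In CFPAC-1 PLS1 was 132 ± 12.8 TPM (SD, n = 3) against 179 ± 26.6 TPM (SD, n = 4) (-0.42, limma adjusted p = 0.0319), a call lost under rescaling, with only the groups compared (0.0589) and without any 1 of 6 libraries. The SUIT-2 and BxPC-3 differences did not pass.

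ESPN did not keep one direction over lines or over experiments of a line. In SUIT-2 it was 1.87, 1.41, 2.1 and 2.84 TPM against 0.35, 0.472, 0.596 and 0.662 TPM in sgRosa, where every control was under 1 TPM and the gene passed the filter through the sgKLF5 group. All 4 were above all controls, by 0.99 on the log2 scale, and no test is given for a gene so selected. In BxPC-3 experiment 2 ESPN was 6.75, 6.83, 6.95 and 7.12 TPM against 9.43, 9.17, 11.1 and 12.2 TPM, all 4 below all controls (-0.53, SE 0.14, limma adjusted p = 0.00845). BxPC-3 experiment 1 gave 6.56, 7.37, 8.18 and 7.51 TPM against 5.71 and 4.75 TPM, a difference of 0.43 with limma adjusted p = 0.125. The BxPC-3 experiments differed from each other by 0.96 (SE 0.22, limma adjusted p = 0.00417).

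Of the members in these lines 1 was called in SUIT-2, with 3.94% of all genes, and 0 in T3M-4 experiment 1, with 5.72%. The SUIT-2 call is the ESPN just described, which the filter selected, so it does not count as a test. T3M-4 experiment 2 had 1 call with 34.6% and BxPC-3 experiment 1 had 0 with 16.2%. BxPC-3 experiment 2 had 1 with 34.6% and CFPAC-1 had 2 with 16.2%. Over all KLF5 comparisons, 13 of 38 pairs of gene and comparison were lower, of which 9 came from AsPC-1. The 2 higher were VIL1 in AsPC-1 and ESPN in SUIT-2, the latter without a test. Of all genes 3.94% to 34.6% were called in a comparison, in either direction. In SUIT-2 the counts were 2 lower and 1 higher after rescaling.

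**Figure D3:**
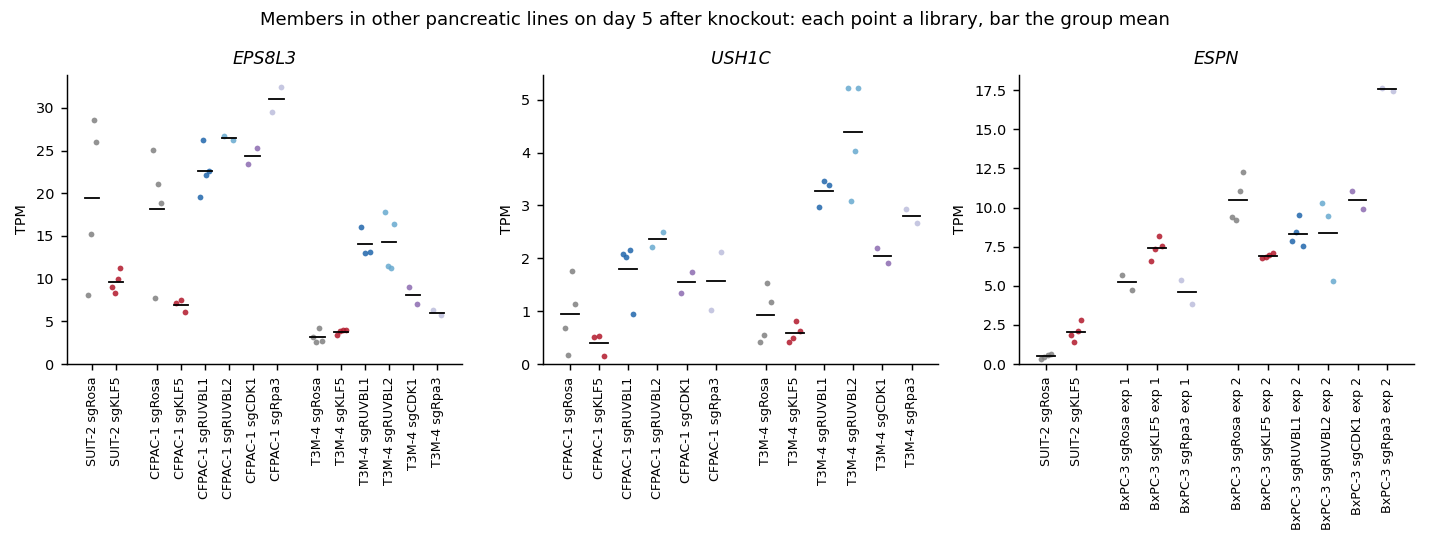
TPM on day 5 of EPS8L3 in SUIT-2, CFPAC-1 and T3M-4, USH1C in CFPAC-1 and T3M-4, and ESPN in SUIT-2 and both BxPC-3 experiments, with points for libraries and a bar at the group mean. EPS8L3 in T3M-4 was 2.60 to 4.28 TPM in sgRosa and 11.3 to 17.8 TPM in the sgRUVBL1 and sgRUVBL2 libraries, and ESPN in BxPC-3 experiment 2 was under 7.2 TPM in all 4 libraries labelled sgKLF5.

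Loss of RUVBL1 or RUVBL2 lowered MYO1A and VIL1 in AsPC-1, whereas CDHR5 rose with sgRUVBL1. In experiment 2 MYO1A was 36.9, 34.5, 39 and 36.3 TPM in sgRosa and 14.1, 15.9, 15.8 and 14.1 TPM in sgRUVBL1. The groups were well apart, by -1.24 on the log2 scale (SE 0.085, limma adjusted p = 1.5e-08). In experiment 3 the sgRUVBL1 libraries held 28.3, 31.1, 47.7 and 39.7 TPM (-1.32, SE 0.21, limma adjusted p = 4.96e-05) and the sgRUVBL2 libraries 56.4, 44.6, 56 and 51.7 TPM (-0.80, SE 0.21, limma adjusted p = 0.0051). Each of these lay under the lowest sgRosa library of that experiment, at 82.4 TPM.

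VIL1 fell in all 3 comparisons, in contrast to its level after KLF5 loss. It was 38.8, 36.9, 41.1 and 40.9 TPM against 56.9, 61.9, 61.6 and 60.5 TPM in experiment 2 (-0.60, SE 0.11, limma adjusted p = 0.000182). In experiment 3 it was 197, 189, 241 and 205 TPM with sgRUVBL1 and 252, 179, 229 and 231 TPM with sgRUVBL2, all under the lowest sgRosa library at 320.4 TPM, with differences of -0.71 and -0.62 (SE 0.087 for both, limma adjusted p = 3.37e-06 and 2.98e-05). PLS1, another bundler, fell with sgRUVBL1 in experiment 2, from 39.2 ± 5.35 TPM (SD, n = 4) to 23.6 ± 1.65 TPM (SD, n = 4) (-0.70, SE 0.099, limma adjusted p = 2.42e-05). The PLS1 difference was -0.30 with sgRUVBL1 in experiment 3 (limma adjusted p = 0.0245), a call lost without any 1 of 4 libraries, and -0.024 with sgRUVBL2, which did not pass.

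The rise of CDHR5 was seen in both experiments. In experiment 2 it was 20.1, 15, 21.9 and 19.3 TPM in sgRosa and 31.8, 33, 36.1 and 37.3 TPM in sgRUVBL1, with every knockout library above every control (0.83, SE 0.13, limma adjusted p = 5e-05). In experiment 3 CDHR5 was 72.1, 63.4, 63.2 and 48.7 TPM with sgRUVBL1 (0.50, limma adjusted p = 0.0428) and CDHR2 109, 104, 99.7 and 83 TPM (0.34, limma adjusted p = 0.0306). Both of these calls, and the small rise of USH1C in experiment 2 (0.17, limma adjusted p = 0.0219), were lost under rescaling, and the experiment 3 calls of CDHR5 and CDHR2 were also lost without any 1 of 12 and 6 libraries. With sgRUVBL2 CDHR5 was 66.2, 38.6, 54.5 and 55.8 TPM (0.29, limma adjusted p = 0.256) and CDHR2 93.7, 69.97, 93.3 and 91.3 TPM (0.15, limma adjusted p = 0.348), neither past the threshold. EPS8L3 gave 0.17, 0.22 and 0.28 in the 3 comparisons, none past the threshold. Without sgRUVBL2 replicate 2, the lowest of its group for 8 of the 9 genes, EPS8L3 passed in the sgRUVBL2 comparison (limma adjusted p = 0.000819). MYO7B and ESPN did not pass in any of the 3.

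In experiment 2, 3 of 9 genes fell against 25.8% of all genes and 2 rose against 30.0%. With sgRUVBL1 in experiment 3, 3 fell against 15.2% and 2 rose against 36.6%, and with sgRUVBL2 2 of 9 changed against 43.2%. The median of all genes rose by 0.16 and 0.13 in these 2 comparisons of experiment 3. After rescaling 5 fell and 0 rose with sgRUVBL1 there, and 4 fell and 0 rose with sgRUVBL2. In experiment 2 rescaling gave 3 lower and 1 higher. No gene of the 9 passed the test of a difference between the sgRUVBL1 effects of the experiments, which 18.2% of all genes did. KLF5 mRNA itself was lower in sgRUVBL1, at 71.8 against 117 TPM in experiment 2 and 108 against 156 TPM in experiment 3, and its part in the members' differences was not tested.

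In T3M-4, where EPS8L3 was low at baseline, it rose in both knockouts. The sgRosa libraries held 3.18, 2.6, 4.28 and 2.75 TPM, the sgRUVBL1 libraries 13.1, 16 and 13 TPM and the sgRUVBL2 libraries 17.8, 11.5, 11.3 and 16.4 TPM. Every knockout library was at least 11.3 TPM, with differences of 1.85 (SE 0.16, limma adjusted p = 7.19e-08) and 1.85 (SE 0.15, limma adjusted p = 2.67e-08). USH1C differed the same way, from 0.42, 0.552, 1.53 and 1.17 TPM to 3.39, 2.97 and 3.46 TPM in sgRUVBL1 and 5.22, 3.09, 4.04 and 5.22 TPM in sgRUVBL2. Every knockout library was above every control, but USH1C had a control mean of 0.919 TPM and passed the filter through the knockout groups, so no test is given. So many genes moved in T3M-4 that these counts stand near the background, with 60.5% of all genes called for sgRUVBL1 and 54.5% for sgRUVBL2.

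CFPAC-1 and BxPC-3 showed less. In CFPAC-1 only ESPN passed, at 2.17, 1.41, 1.56 and 2.16 TPM with sgRUVBL1 against 3.2, 3.58, 3.03 and 2.51 TPM (-0.53, SE 0.14, limma adjusted p = 0.00684), where 43.8% of all genes were called, and no member passed with sgRUVBL2, where 12.1% were. The median of all genes was -0.20 with sgRUVBL1, and after rescaling 1 member was lower and 2 higher there. The 5 members in that comparison include USH1C. USH1C in CFPAC-1 was 1.8 ± 0.572 TPM (SD, n = 4) with sgRUVBL1 and 2.36 ± 0.202 TPM (SD, n = 2) with sgRUVBL2 against 0.938 ± 0.671 TPM (SD, n = 4). It passed the filter through the groups where it was high, so no test is given. In BxPC-3 no member passed with sgRUVBL1 or sgRUVBL2, where 16.0% and 9.76% of all genes were called.

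Knockouts of CDK1 and RPA3 served as comparison, since CDK1 drives the cell cycle and RPA3 serves DNA replication. MYO1A in AsPC-1 was 72.6 and 81.5 TPM with sgCDK1 and 87.4 and 92.1 TPM with sgRpa3, neither past the threshold, although the sgCDK1 difference of -0.24 passed with only the groups compared in the fit (limma adjusted p = 0.0411). Its level in these 4 libraries was above every sgRUVBL1, sgRUVBL2 and sgKLF5 library of the experiment. VIL1 rose with sgCDK1, to 425 and 435 TPM (0.34, SE 0.11, limma adjusted p = 0.034), a call lost without any 1 of 5 libraries and under rescaling. It was the only one of 9 called with sgCDK1 in AsPC-1 against 16.7% of all genes, and 0 of 9 were called with sgRpa3 against 0.654%. With only the groups compared 3 members were lower and 3 higher with sgCDK1.

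In T3M-4 experiment 2 EPS8L3 rose in these knockouts too. EPS8L3 was 9.06 and 7.05 TPM with sgCDK1 (1.12, SE 0.18, limma adjusted p = 0.000806) and 6.33 and 5.7 TPM with sgRpa3 (0.75, limma adjusted p = 0.00662, lost without sgRpa3 replicate 1), and both calls were lost with only the groups compared in the fit (0.0503 and 0.0674). USH1C, given without a test for the reason above, was 2.19 and 1.91 TPM with sgCDK1 and 2.93 and 2.67 TPM with sgRpa3. Of all genes 16.8% and 24.6% were called in these comparisons. In BxPC-3 experiment 2 PLS1 rose with sgCDK1, to 15.8 and 14.4 TPM against 8.98, 8.41, 8.97 and 6.76 TPM (0.80, limma adjusted p = 0.00163), with 5.82% of all genes called, and ESPN rose with sgRpa3, to 17.6 and 17.5 TPM (0.70, limma adjusted p = 0.00923), with 20.8% called. The PLS1 call was lost without sgCDK1 replicate 1 and the ESPN call without either sgRpa3 library. In CFPAC-1 VIL1 rose with sgRpa3, to 6.49 and 7.05 TPM against 1.24, 1.52, 2.27 and 3.16 TPM (1.39, limma adjusted p = 0.00366, lost without sgRpa3 replicate 2), with 11.6% of all genes called.

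No member was called with sgRpa3 in experiment 1 of T3M-4 or BxPC-3, where 0% and 0.307% of all genes were called, or with sgCDK1 in CFPAC-1, where 0% were. In those comparisons with 0 calls limma gave 189 genes for T3M-4 and 1477 for CFPAC-1 at an unadjusted p under 0.05. CDK1 mRNA itself was not lower in AsPC-1 or CFPAC-1 sgCDK1 beyond the threshold. Together 8 of 46 pairs of gene and comparison changed with CDK1 or RPA3 knockout, where 0% to 24.6% of all genes were called in a comparison. The 8 include USH1C in T3M-4 experiment 2 with each of the 2 knockouts, which is given without a test.

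The knockouts were then set directly against the CDK1 and RPA3 libraries of the same experiment. In AsPC-1 MYO1A remained lower, by -2.54 for sgKLF5 (limma adjusted p = 2.17e-08), -1.19 for sgRUVBL1 (limma adjusted p = 0.000133) and -0.67 for sgRUVBL2 (limma adjusted p = 0.0159). For sgKLF5, EPS8L3 (-1.09), CDHR2 (-0.47), USH1C (-0.36), MYO7B (-0.99) and ESPN (-1.0) were lower as well, and none was higher. For sgRUVBL1, VIL1 (-0.98), MYO7B (-0.67) and PLS1 (-0.35) were lower and CDHR5 (0.65) higher, and for sgRUVBL2, VIL1 (-0.89), MYO7B (-0.52) and ESPN (-0.60) were lower. For sgRUVBL2 the MYO1A call was lost without sgCDK1 replicate 2 (0.0525) and the MYO7B call without any 1 of 5. The shares of all genes called were 34.7%, 51.2% and 42.1%. CDHR2 for sgKLF5, and MYO7B and ESPN for the RUVBL1 and RUVBL2 guides, had not passed against sgRosa.

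The rise of EPS8L3 in T3M-4 was larger with sgRUVBL1 and sgRUVBL2 than with the CDK1 and RPA3 guides, by 0.92 and 0.91 (limma adjusted p = 0.000225 and 0.000127). With sgKLF5 in T3M-4, EPS8L3 (-0.73) and ESPN (-0.70) were lower than in the CDK1 and RPA3 libraries, though neither had passed against sgRosa, and the ESPN call was lost without any 1 of 5 libraries. USH1C gave -1.11, 0.33 and 0.64 for sgKLF5, sgRUVBL1 and sgRUVBL2, again without a test. The shares of all genes called in T3M-4 were 28.4% for sgKLF5, 41.8% for sgRUVBL1 and 38.2% for sgRUVBL2.

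ESPN was the gene most often lower in this kind of comparison, in 9 of 12. Against sgRosa it was lower in only 2 of 8 KLF5 comparisons and 1 of 9 with RUVBL1 or RUVBL2 guides. In BxPC-3 it was lower by -0.88, -0.65 and -0.69 for sgKLF5, sgRUVBL1 and sgRUVBL2, with PLS1 (-0.30, lost without any 1 of 6 libraries) also lower for sgKLF5 and 46.8%, 20.4% and 20.7% of all genes called. The sgRUVBL2 call of ESPN was lost with only the groups compared in the fit (0.118). In CFPAC-1 the ESPN values were -0.86, -0.97 and -0.87, with 43.7%, 55.4% and 23.8% of all genes called. For sgKLF5 in CFPAC-1, EPS8L3 (-1.85) and VIL1 (-1.42) were lower too, of which VIL1 had not passed against sgRosa. USH1C gave -0.86, without a test, since its sgRosa mean was under 1 TPM and other groups carried it past the filter. These comparisons share CDK1 and RPA3 libraries within each experiment. ESPN in BxPC-3 and VIL1 in CFPAC-1 had risen with sgRpa3 against sgRosa. So had PLS1 in BxPC-3 and VIL1 in AsPC-1 with sgCDK1, and EPS8L3 in T3M-4 with both. These rises enter the differences from the CDK1 and RPA3 libraries. Over the 4 lines 31 of 63 pairs changed, where 20.4% to 55.4% of all genes were called in a comparison. The 31 include USH1C in T3M-4 and CFPAC-1, which is given without a test.

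CHD4 is the ATPase of the NuRD chromatin remodelling complex. In the libraries labelled sgCHD4 7 of the 9 genes fell and none rose, where 26.7% of all genes fell and 23.3% rose, and in each of the 7 all 4 libraries were below all 4 controls. MYO7B fell most, from 22.8, 22.5, 23.2 and 22.6 TPM in sgRosa to 5.52, 4.56, 6.76 and 6.45 TPM (-1.81, SE 0.11, limma adjusted p = 8.68e-08). PLS1 fell from 59.4, 56.8, 57.1 and 51.9 TPM to 22.2, 18.1, 26 and 23.7 TPM (-1.30, SE 0.096, limma adjusted p = 6.28e-07).

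CDHR2 was 26.2, 19.3, 28.9 and 28.1 TPM against 44.9, 47.8, 51.1 and 50.4 TPM (-0.91, SE 0.11, limma adjusted p = 3.16e-05). MYO1A was 34.8, 24.7, 34.4 and 34.3 TPM against 53.6, 57.9, 56 and 55.9 TPM (-0.80, SE 0.098, limma adjusted p = 3.85e-05). The remaining falls were smaller, -0.40 for CDHR5, -0.38 for USH1C and -0.22 for VIL1, with adjusted p from 0.000205 to 0.0194. The VIL1 call was lost without sgRosa replicate 3 (0.0506). EPS8L3 (-0.087) and ESPN (0.13) did not pass. The sgCHD4 replicate 2 library was the lowest of its group for all 9 genes. The median difference of the 9 was -0.40 against -0.03 for all genes.

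Knockout of SERPINB5, which encodes the serpin maspin, changed none of the 9. MYO1A was 36.5, 33.7, 34.7 and 27.8 TPM against 36.9, 34.5, 39 and 36.3 TPM in sgRosa, and VIL1 was 81.5, 69.3, 67.3 and 50.01 TPM against 56.9, 61.9, 61.6 and 60.5 TPM. The groups overlapped for both, sgSERPINB5 replicate 4 was the lowest of its group for all 9 genes, and limma called 4 genes in all, 0.0343% of those tested, with 802 at an unadjusted p under 0.05.

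**Figure D4:**
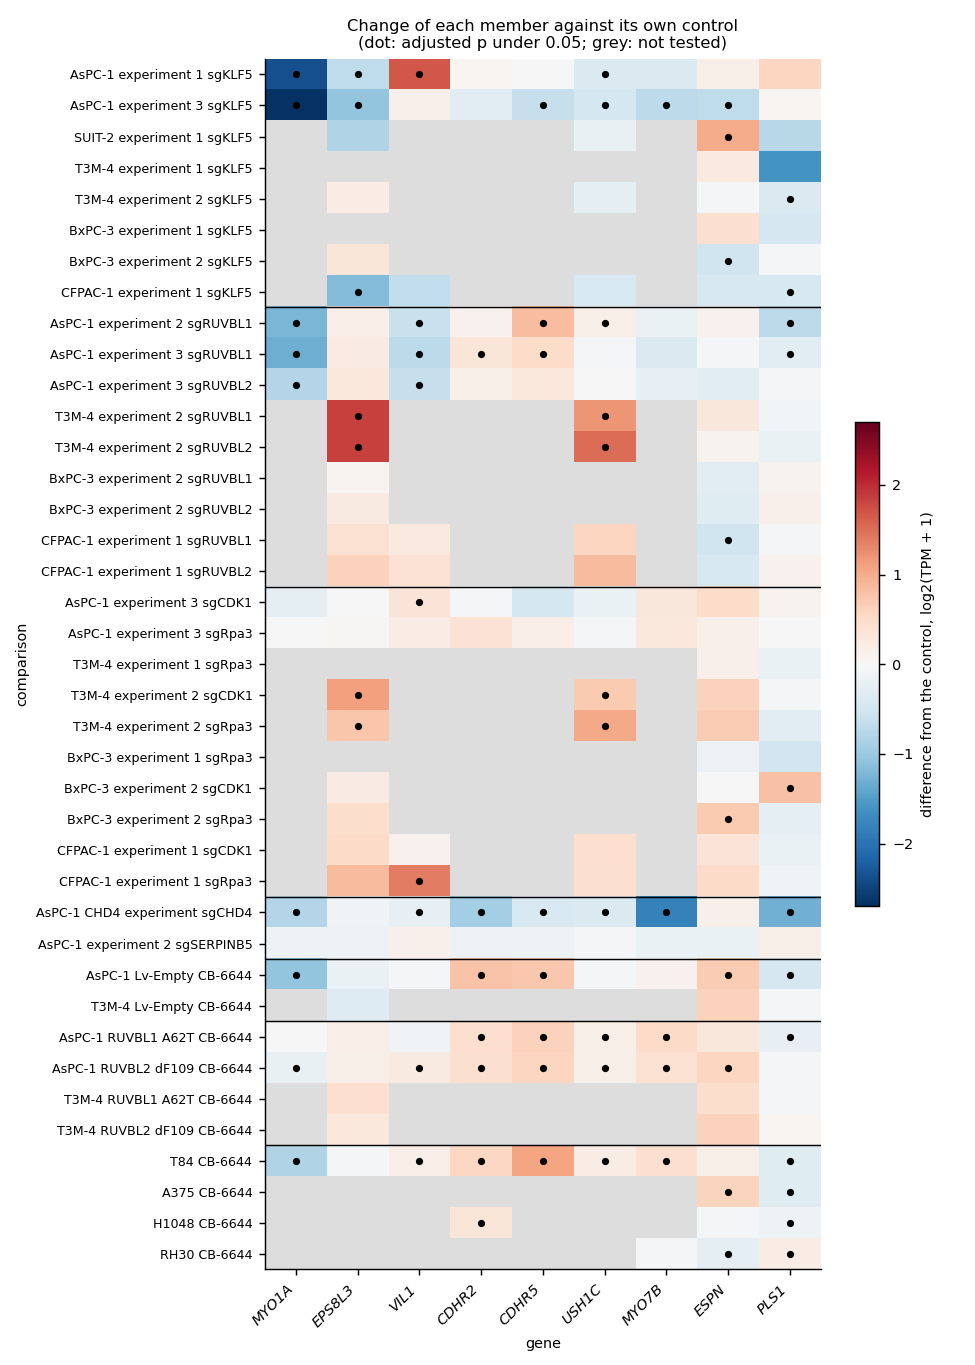
Differences in log2(TPM + 1) of the 9 genes (columns) in the 39 comparisons with a control (rows), with blue for lower and red for higher, a dot where the adjusted p was under 0.05 and grey where a gene was not tested. MYO1A was lower by 0.80 to 2.67 in each AsPC-1 KLF5, RUVBL1, RUVBL2 and CHD4 comparison and in AsPC-1 Lv-Empty and T84 cells in CB-6644, and CDHR5 was higher by 0.72 in AsPC-1 and 1.07 in T84 cells in CB-6644.

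After 24 h of RUVBL1/2 inhibition some of the 9 genes fell and others rose in AsPC-1 cells with the empty vector. MYO1A was 27.4, 27.8 and 28.9 TPM in CB-6644, against DMSO values of 59.7 TPM with Lv-Empty, 63.4 TPM with RUVBL1 A62T and 57 TPM with RUVBL2 dF109. The treated libraries were closely grouped and well below all 3, by -1.07 on the log2 scale (SE 0.057, limma adjusted p = 3.84e-08). PLS1 also fell, to 39.3, 36.7 and 36.1 TPM from 51.8 ± 2.1 TPM (SD, n = 3) (-0.46, SE 0.060, limma adjusted p = 3.38e-05).

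The adhesion protocadherins rose. CDHR2 was 134, 139 and 162 TPM against 91.5, 90.8 and 70.5 TPM in the DMSO libraries (0.78, SE 0.11, limma adjusted p = 9.08e-05). CDHR5 was 62.7, 66.1 and 80.8 TPM against 43.1, 48.2 and 34.8 TPM (0.72, SE 0.13, limma adjusted p = 0.000448). ESPN rose from 3.62 ± 0.437 TPM (SD, n = 3) to 6.44 ± 1.11 TPM (SD, n = 3) (0.68, SE 0.12, limma adjusted p = 0.000428). In all, 2 of 9 fell against 17.2% of all genes and 3 rose against 47.2%, so these counts stand near or under the background.

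EPS8L3 (-0.17), VIL1 (-0.028), USH1C (-0.056) and MYO7B (0.12) did not pass. The median gene rose by 0.19 in this comparison, and after rescaling EPS8L3, VIL1 and USH1C were lower as well. VIL1 thus stood at 198, 193 and 208 TPM in CB-6644 against 187 to 218 TPM in DMSO, whereas the RUVBL1 and RUVBL2 knockouts had lowered it. Knockout and inhibitor libraries differ in time and in controls, and the difference between them was not tested. KLF5 mRNA was 77.2 TPM in CB-6644 and 113 TPM in DMSO (limma adjusted p = 0.000144).

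**Figure D5:**
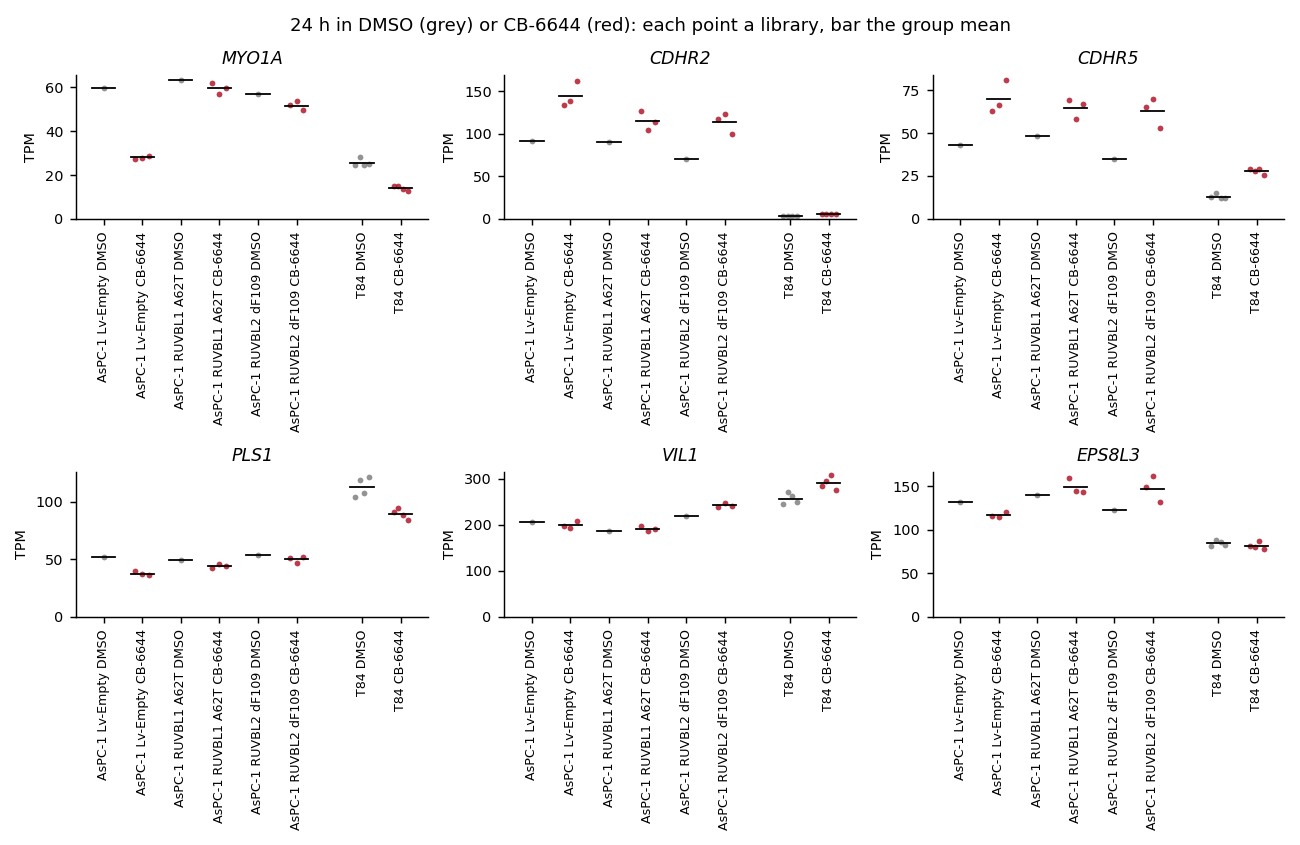
TPM after 24 h in DMSO (grey) or CB-6644 (red) of MYO1A, CDHR2, CDHR5, PLS1, VIL1 and EPS8L3 in AsPC-1 with each construct and in T84, with points for libraries. MYO1A was 27.4 to 28.9 TPM in CB-6644 with the empty vector and 49.5 to 62 TPM with either resistance variant, and in T84 it was 12.9 to 15.0 TPM against 24.6 to 28.2 TPM in DMSO.

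With a resistance variant MYO1A was little below its DMSO level. It was 62, 57 and 59.99 TPM in CB-6644 with RUVBL1 A62T (-0.0086, limma adjusted p = 0.928) and 51.9, 53.7 and 49.5 TPM with RUVBL2 dF109. The latter fall of 0.21 passed (limma adjusted p = 0.0158) but not without the A62T DMSO library or dF109 CB-6644 replicate 1, with only the groups compared (0.0678) or against the dF109 DMSO library alone (0.116). Set against each other in CB-6644, empty vector cells were lower than A62T cells by -1.06 on the log2 scale (SE 0.057, limma adjusted p = 9.17e-08) and lower than dF109 cells by -0.86 (SE 0.057, limma adjusted p = 5.16e-07). In these comparisons 51.1% and 47.2% of all genes were called.

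CDHR5 did not separate the constructs in this way. In CB-6644 it was 69.3, 58.5 and 66.9 TPM with A62T and 65.4, 69.9 and 53.2 TPM with dF109, above DMSO by 0.62 and 0.57 (limma adjusted p = 0.0155 and 0.00831). The empty vector differed from A62T by 0.099 and from dF109 by 0.15, with SE 0.13 for both and limma adjusted p = 0.547 and 0.371. CDHR2 rose with the variants by 0.45 and 0.43, and was higher with the empty vector than with either, by 0.33 and 0.35 (limma adjusted p = 0.031 and 0.024). Both CDHR2 differences between constructs were lost without Lv-Empty CB-6644 replicate 3, among others.

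EPS8L3, USH1C and PLS1 were lower with the empty vector than with either variant, although EPS8L3 and USH1C did not differ from DMSO past the threshold. EPS8L3 was 115, 114 and 119.9 TPM with the empty vector, 159, 145 and 143 TPM with A62T and 148, 162 and 131 TPM with dF109, differences of -0.35 and -0.33 (limma adjusted p = 0.00184 and 0.00302). The USH1C differences were -0.21 and -0.22, and those of PLS1 -0.23 and -0.41. VIL1 was lower than with dF109 alone (-0.28), MYO7B lower than with A62T alone (-0.40) and ESPN higher than with A62T alone (0.37). The MYO7B and ESPN calls were lost without any 1 of 4 and 3 libraries.

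Against DMSO, 1 member fell and 4 rose with A62T, where 12.7% of all genes were called, and 1 fell and 6 rose with dF109, where 33.4% were. With A62T the risers were CDHR2, CDHR5, USH1C (0.15) and MYO7B (0.52) and PLS1 fell (-0.23), each a call lost without any 1 of 3 to 10 libraries. With only the groups compared in the fit 1 rose with A62T, CDHR5, and against the A62T DMSO library alone 0 were called. With dF109 the risers were VIL1 (0.25), CDHR2, CDHR5, USH1C (0.17), MYO7B (0.40) and ESPN (0.57). The CDHR2 and MYO7B calls with dF109 were lost without any 1 of 3 and 7 libraries and that of USH1C without 1. After rescaling VIL1, USH1C and MYO7B no longer passed with dF109, and USH1C turned to -0.029.

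T3M-4 cells showed no call against DMSO in any construct, where 34.3%, 50.0% and 37.6% of all genes were called with Lv-Empty, A62T and dF109. ESPN was 36.1, 25.3 and 13.1 TPM in CB-6644 with the empty vector against 14.7 ± 1.76 TPM (SD, n = 3) (0.61, limma adjusted p = 0.0889), and without CB-6644 replicate 3 the difference was 1.0 (limma adjusted p = 0.000691). EPS8L3, which had risen in the RUVBL1 and RUVBL2 knockouts of this line, was 0.707, 0.835 and 0.375 TPM with the empty vector, 2.02, 1.82 and 1.64 TPM with A62T and 1.56, 1.58 and 1.39 TPM with dF109 in CB-6644. It stood lower with the empty vector by -0.80 and -0.63, where 50.6% and 34.6% of all genes were called. EPS8L3 passed the filter here through the variant libraries, where it was high, so no test is given. The single DMSO libraries held 0.492 TPM with the empty vector, 1.56 TPM with A62T and 1.32 TPM with dF109, so EPS8L3 was lowest with the empty vector in DMSO as well.

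In T84 MYO1A and PLS1 fell and CDHR2 and CDHR5 rose, as in AsPC-1 with the empty vector. MYO1A was 24.6, 28.2, 24.6 and 24.9 TPM in DMSO and 15, 15, 13.6 and 12.9 TPM in CB-6644, with no overlap (-0.81, SE 0.069, limma adjusted p = 4.56e-08). CDHR5 was 12.4, 14.9, 11.8 and 12.3 TPM in DMSO and 29.1, 27.9, 29.3 and 25.7 TPM in CB-6644, again with no overlap (1.07, SE 0.074, limma adjusted p = 5.11e-09). PLS1 fell from 104, 119, 108 and 121 TPM to 91, 94.3, 88.6 and 83.9 TPM (-0.33, SE 0.055, limma adjusted p = 6.09e-05).

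CDHR2 rose from 3.3, 3.63, 3.65 and 3.16 TPM to 5.82, 5.55, 5.7 and 5.11 TPM (0.56, SE 0.082, limma adjusted p = 1.7e-05). MYO7B rose by 0.44, USH1C by 0.20 and VIL1 by 0.18 (limma adjusted p = 8.42e-05, 0.000217 and 0.00175), whereas EPS8L3 (-0.049) and ESPN (0.16) did not pass. After rescaling VIL1 was -0.0080 and USH1C 0.010, neither past the threshold. In T84, 2 of 9 fell against 24.2% of all genes and 5 rose against 47.2%, so these counts stand near the background.

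The lines that lacked a brush border programme at baseline had 2 or 3 members to test. In A375 ESPN rose from 4.3, 4.23, 4.44 and 3.79 TPM to 6.73, 6.17, 7.57 and 6.84 TPM (0.59, limma adjusted p = 1.01e-05) and PLS1 fell by 0.32, with 81.1% of all genes called. In H1048 CDHR2 rose by 0.32 (limma adjusted p = 0.0174) and PLS1 fell by 0.13 (limma adjusted p = 0.0281), with 77.9% called, and these calls were lost without any 1 of 2 and 4 libraries. In RH30 ESPN fell from 2.03 ± 0.144 TPM (SD, n = 4) to 1.52 ± 0.292 TPM (SD, n = 4) (-0.27, limma adjusted p = 0.0253, lost without any 1 of 3 libraries), and PLS1 rose from 25.1 ± 1.19 TPM (SD, n = 4) to 29.2 ± 1.45 TPM (SD, n = 4) (0.21, limma adjusted p = 0.00109). The PLS1 rise was 0.045 after rescaling, with limma adjusted p = 0.353, and 77.7% of all genes were called. With so large a share of genes called in these 3 lines, a call of a member stands at the background.

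Where a knockout was made in more than 1 experiment, the change in each was compared. Of 25 pairs of gene and comparison 3 differed, VIL1 and ESPN for sgKLF5 in AsPC-1 and ESPN for sgKLF5 in BxPC-3. ESPN in AsPC-1 differed by 0.83 (limma adjusted p = 0.0449), and that call was lost without any 1 of 20 of the 28 libraries. The shares of all genes that differed were 4.28% for sgKLF5 in AsPC-1, 17.4% in T3M-4, where no member passed, and 16.7% in BxPC-3.

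Other genes of the brush border were taken as lists, of 18 further structural genes, 20 digestive enzymes and transporters and 8 transcription factors of enterocytes. These lists did not move as one. In AsPC-1 experiment 1 the libraries labelled sgKLF5 had 3 of 17 tested structural genes lower and 7 higher, where 8.81% and 17.1% of all genes were, and in experiment 3 they had 6 lower and 2 higher, where 12.3% and 15.4% were. SLC9A3R1, which encodes the ezrin-binding scaffold NHERF1, was lower in both, at 142 against 179.6 TPM (-0.34) and 118 against 151 TPM (-0.36). PDZK1, another scaffold of apical transporters, was higher in both, by 1.03 and 0.68. Over the 23 comparisons with KLF5, RUVBL1 or RUVBL2 knockout or CB-6644, SLC9A3R1 was lower in 13 and higher in 3, and PDZK1 was lower in 1 and higher in 12.

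Of the transcription factors, HNF4A fell with MYO1A and EPS8L3 in the libraries labelled sgKLF5, from 46.7 to 21.9 TPM (-1.06) and from 70.2 to 24.7 TPM (-1.49), and in CFPAC-1 from 10.8 to 6.38 TPM (-0.65). It did not change past the threshold with sgRUVBL1 in AsPC-1 (-0.13 and -0.036) or in CB-6644 in AsPC-1 (-0.057) and T84 (0.027), where MYO1A also fell. CDX2, the intestinal homeobox factor, had another pattern. It rose with VIL1 in the libraries labelled sgKLF5 of experiment 1, from 6.2 to 15.6 TPM (1.21), and also in experiment 3 (0.79), and it fell with sgRUVBL1 (-0.48 and -0.36), sgRUVBL2 (-0.33), sgCHD4 (-1.29) and CB-6644 in AsPC-1 (-0.85) and T84 (-0.76). ELF3, an epithelial ETS factor, fell with sgKLF5 (-0.86 and -1.37) and sgCHD4 (-0.66) in AsPC-1 and rose in T3M-4 with sgRUVBL1 (1.42) and sgRUVBL2 (1.25). GATA6, a zinc finger factor of gut and pancreas, was lower in 6 and higher in 4 of the 22 comparisons in which it was tested. It rose with sgKLF5 in AsPC-1 experiment 1, from 27.9 to 41.4 TPM (0.55), and fell in BxPC-3 experiment 2, from 40.7 to 22.5 TPM (-0.83), and in T84 in CB-6644 (-0.67). These genes moved beside the members, and their part in the members' differences was not tested.

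Among enzymes and transporters, DPP4, a brush border peptidase, rose with sgKLF5 in AsPC-1 (0.54 and 0.39) and in CB-6644 in AsPC-1 (0.53) and T84 (0.54). SLC15A1, the intestinal peptide transporter, fell with sgCHD4 from 157 to 69.1 TPM (-1.18), fell with sgRUVBL1 in AsPC-1 experiment 2 (-0.67) and rose in T3M-4 with sgRUVBL1 (1.03) and sgRUVBL2 (1.13). GGT1, a gamma-glutamyltransferase, was higher in 10 and lower in 2 of the 23 comparisons, with its largest values in T3M-4 sgKLF5 (1.68 and 1.44). In T3M-4 11 of 16 structural genes were higher and 2 lower with sgRUVBL1, where 45.9% of all genes were higher and 14.6% lower, and 11 were higher and 3 lower with sgRUVBL2, where 39.3% and 15.2% were. EZR, the ezrin gene that links actin to the membrane, was 994 against 642 TPM there (0.63). In the libraries labelled sgCHD4 6 of 7 transcription factors tested fell and none rose, where 26.7% of all genes fell, beside the 7 members that fell.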

How the data were processed

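RNA-seq libraries of human cell lines were analysed from the deposited tables of TPM values. The authors made polyA-selected single-end libraries, quantified transcripts with kallisto against hg38, removed low-abundance transcripts (the limit is not given in the sources used here) and summed to genes with tximport, so each deposited TPM column has the same sum and holds neither counts nor depth. The number of libraries per group therefore sets the precision. Strand use and the sgRNA of each library were not given, so libraries with different guides to a gene were treated as replicates.

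From these values log2(TPM + 1) was fitted with limma 3.58.1 (trend) in R 4.3.3, one fit per line and experiment, or per line for inhibitor libraries, over all its libraries. Genes averaging 1 TPM or more across the libraries of a fit were tested, with Benjamini-Hochberg adjustment over all of them and a threshold of 0.05. Groups came from the labels, and the labels' batch field holds 1 value throughout. The 9 genes were named in each comparison, and other genes where they were among the 3 of their list called the same way most often. HNF4A, CDX2 and ELF3 were always given, and 1 gene and its motif are not reported here. The members, lists and comparisons were chosen with earlier results of these data known. The fitting code was tested on simulated data. Alternatives were a pseudocount of 0.1, a minimum mean of 5 TPM or none, libraries rescaled by the median of ratios, only the groups compared, the DMSO library of the same construct alone, a block for the replicate number, and each library left out in turn. Replicate numbers were checked for pairing by the correlation of same-numbered libraries' deviations, with a limit of 0.1.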

Additional observations from a re-analysis of the deposited data

Results flagged for a closer look

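A library stood far from the rest of its group in 10 of the 163 combinations of gene and group with 4 to 10 libraries, where chance gives about 1 in 20. In the sgCHD4 group replicate 2 was low for MYO1A (24.7 TPM) and CDHR5 (15.7 TPM). In AsPC-1 experiment 3 sgRUVBL2 replicate 2 was low for EPS8L3 (104 TPM), CDHR2 (70.0 TPM) and MYO7B (25.6 TPM), and sgRUVBL1 replicate 4 was low for MYO7B (27.9 TPM). The others were MYO1A in T84 DMSO replicate 2, which was high (28.2 TPM), VIL1 in sgRosa replicate 1 of the CHD4 experiment (139.9 TPM), USH1C in CFPAC-1 sgRUVBL1 replicate 4 (0.950 TPM) and ESPN in T3M-4 experiment 2 sgRosa replicate 4 (9.72 TPM), which were low.

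In 3 cases the change after sgKLF5 differed between experiments of a line by a test of the difference. The change of VIL1 in AsPC-1 was 1.54 higher on the log2 scale in experiment 1 than in experiment 3 (limma adjusted p = 2.63e-08). That of ESPN was 0.83 higher in AsPC-1 experiment 1 than in experiment 3 (limma adjusted p = 0.0449) and 0.96 higher in BxPC-3 experiment 1 than in experiment 2 (limma adjusted p = 0.00417).

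ESPN and PLS1 lay wholly on opposite sides of their controls in different lines, and the difference between lines was not tested. In the libraries labelled sgKLF5 ESPN was above every control in SUIT-2 (0.99), T3M-4 experiment 1 (0.26) and BxPC-3 experiment 1 (0.43), and below every control in BxPC-3 experiment 2 (-0.53). In CB-6644 ESPN was above every control in AsPC-1 with the empty vector (0.68) and A375 (0.59) and below every control in RH30 (-0.27). PLS1 in CB-6644 was above every control in RH30 (0.21) and below every control in AsPC-1 with the empty vector (-0.46), T84 (-0.33) and A375 (-0.32).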

How the results depend on the processing

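Of 126 calls of members, 89 were kept without any 1 library and 37 were lost without at least 1, with 0 reversals of sign in 1895 refits. The counts hold ESPN in SUIT-2, USH1C in T3M-4 and CFPAC-1, and EPS8L3 in the T3M-4 inhibitor libraries. These passed the filter through the groups where they were high. With only the groups compared in the fit 22 results were stronger and 16 weaker. Rescaling made 28 results stronger and 12 weaker and reversed 2. It took members lower with RUVBL1 or RUVBL2 knockout from 9 to 15. In CB-6644 it took members lower with the empty vector from 2 to 5 and members higher in the other lines from 8 to 4. It turned USH1C in AsPC-1 dF109 cells in CB-6644 to -0.029 and VIL1 in T84 to -0.0080. A minimum mean of 5 TPM left 1 member higher with KLF5 knockout in place of 2, and 5 changed with CDK1 or RPA3 knockout in place of 8, since fewer genes were tested. With no minimum 5 members were higher in CB-6644 with the empty vector in place of 3. In cells with resistance variants 12 members changed against the pooled DMSO libraries, 6 against the DMSO library of the same construct alone and 7 with only the groups compared in the fit. The cause of the other changes was not tested.

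Leaving out 1 library gave 1 to 3 members higher with KLF5 knockout, with 1 without SUIT-2 sgKLF5 replicate 1, sgKLF5 replicate 3 or sgRosa replicate 2. It gave 5 to 15 changed with resistance variants, with 7 without A62T CB-6644 replicate 1, 6 without A62T CB-6644 replicate 3 or dF109 CB-6644 replicate 1 and 5 without the dF109 DMSO library. The counts of members lower with KLF5 knockout stayed within 12 to 14 and those lower with RUVBL1 or RUVBL2 knockout within 8 to 10.

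In no fit were all correlations of same-numbered libraries above 0.1, a strict rule, so the numbers were not taken as pairs. The medians of these correlations ran from -0.29 in SUIT-2 to 0.059 in RH30. Some pairs did deviate together, with 10 of 39 above 0.1 and a highest of 0.488 in T3M-4 experiment 2. With the replicate block members lower and higher with KLF5 knockout numbered 13 and 2, and those lower and higher with RUVBL1 or RUVBL2 knockout 9 and 7. CDK1 or RPA3 knockout gave 9, CHD4 or SERPINB5 knockout 7 and the comparisons with CDK1 and RPA3 libraries 30. The block also lost the count of ESPN in SUIT-2, which is given without a test. DMSO libraries of pancreatic lines could not enter a block.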
